A study of Mus musculus with 17 samples.

Results

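Messenger RNA of 10 genes, 6 markers of kidney tubule injury or repair (Spp1, Lcn2, Clu, Havcr1, Vcam1 and Sox9), the 3 fibrinogen chains (Fga, Fgb and Fgg) and the plasma ferroxidase ceruloplasmin (Cp), was followed in kidneys of diabetic and lean mice. They were chosen by name, with earlier results of these data known. Each was found as 1 row among the 55487 mouse gene identifiers of the count table. The tested animals were 9 db/db males, labelled BKS.Cg-Dock7m +/+ Leprdb/J WT/HO, and the lean animals were 8 db/m males, labelled BKS.Cg-Dock7m +/+ Leprdb/J HE/HE. All were 16 weeks old, with 1 library per animal, and no drug or diet is named in the labels. Animals homozygous for the Leprdb allele lack signalling through the long leptin receptor in every cell that would carry it and become obese and diabetic, while db/m mice carry the allele on a single chromosome. The controls therefore share the BKS background and carry a mutant Lepr copy, together with the Dock7m coat colour allele.

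When tubule cells of the kidney are stressed they lose transporters and switch on a set of secreted and surface proteins that are used as injury markers in tissue and urine. Kidney injury molecule 1 (Havcr1) and the adhesion molecule Vcam1 mark injured proximal tubule cells, neutrophil gelatinase-associated lipocalin (Lcn2) is made mainly by distal segments, and osteopontin (Spp1) and the chaperone clusterin (Clu) are secreted along the tubule. Sox9 is a transcription factor that tubule cells turn on during repair. Fibrinogen, the precursor of fibrin clots, is assembled from the alpha, beta and gamma chains encoded by Fga, Fgb and Fgg; it is made chiefly by hepatocytes, and its chains are also induced in injured kidney tubules.

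Transcripts were counted by 3′ end sequencing (QuantSeq), in which each molecule is read near its 3′ end. Libraries held 3256427 to 7627747 gene counts. Animals were assigned by sample title, in keeping with the 9 and 8 animals of the stated design. A separate genotype entry names the other genotype in each of the 17 cases; were that entry right, every direction below would turn round. Lepr was at 1.92 ± 1.42 CPM in db/db and 3.77 ± 1.92 CPM in db/m kidneys (CPM, counts scaled to a common library total; SD, n = 9 and 8), and since a 3′ read need not cover the mutated part this does not check the labels. The extraction text speaks of cultured cells, but kidney markers were present in every library: the summed level of 8 proximal tubule genes ran from 8376 to 12616 CPM in db/db and from 7615 to 10476 CPM in db/m kidneys. Tissue was sequenced whole, so more cells of a type and more RNA per cell cannot be told apart. The library numbers of the db/m animals all come before those of the db/db animals, so any effect that goes with that order cannot be told apart from genotype. Library db/db replicate 8 lay 3.85 median absolute deviations from the median on the first principal component, and its removal ended no call among the 10 genes.

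Of the 10 genes, 4 were higher in db/db kidneys and 0 were lower. Lcn2, Fgg, Spp1 and Clu rose, Vcam1, Sox9, Cp and Fga did not pass the test, and Havcr1 and Fgb were too low to enter it. Over all 12131 tested genes, 7.39% were called, 3.91% higher and 3.49% lower (edgeR quasi-likelihood fit, Benjamini-Hochberg adjusted p under 0.05). Of the 8 genes tested here 4 were called. Because the 10 genes were chosen with earlier results of these data known, their share and median beside that background are a description only. The 8 had a median log2 fold change of 0.60, beside 0.00328 over all tested genes. Spp1 and Clu, 2 of the 8, showed no overlap between the groups, both higher in db/db. Among all tested genes 1.78% showed none, 0.734% higher and 1.05% lower in db/db.

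**Figure D1:**
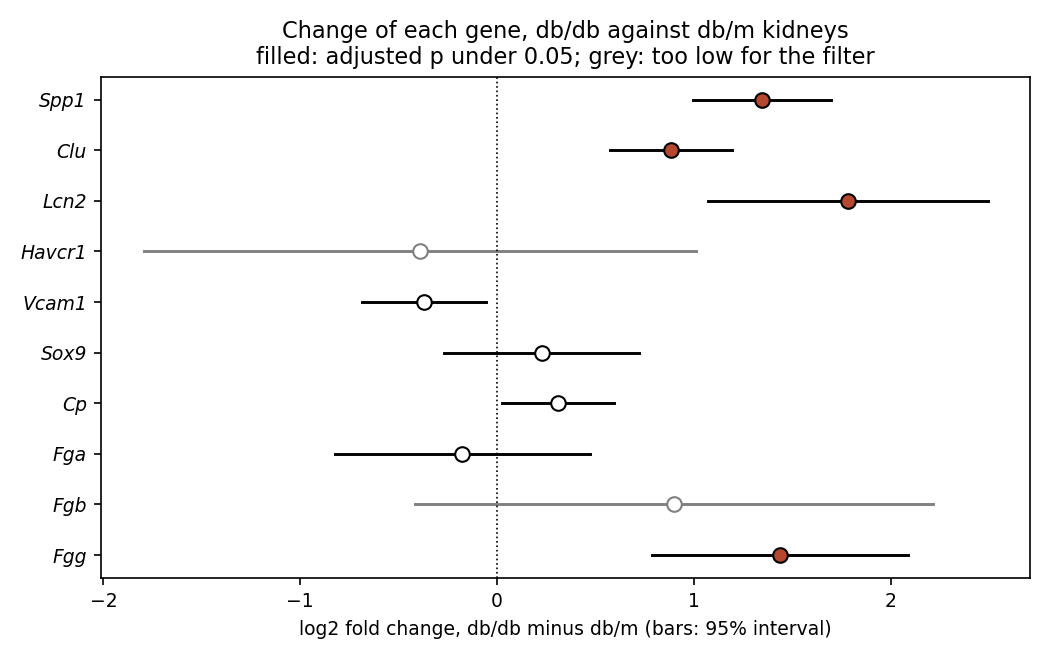
Log2 fold change (db/db minus db/m) of the 10 genes with 95% intervals; filled points passed the test, open points did not, and grey marks the genes fitted without the filter on low counts. The 4 filled points run from 0.88 for Clu to 1.78 for Lcn2, and the intervals of Havcr1 and Fgb are the widest.

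Spp1 encodes osteopontin, a secreted phosphoprotein that binds integrins and CD44. Its level ran from 113.9 through a median of 129.3 to 201.5 CPM in db/db kidneys, against 45.2, 48.6 and 100.9 CPM in db/m kidneys. Every db/db library lay above every db/m library. Within db/db, replicates 1 and 4 stood highest at 201.5 and 197.7 CPM, and the other 7 lay between 113.9 and 133.1 CPM. Within db/m, replicate 8 was at 100.9 CPM, and the other 7 lay between 45.2 and 55.0 CPM. Spp1 rose by a log2 fold change of 1.35 (SE 0.17, a 2.54-fold difference with a 95% interval of 2.00 to 3.24; edgeR adjusted p = 1.43e-05). The exact two-sided permutation p of its mean log2 CPM was 4.11e-05, the smallest that 9 against 8 libraries can give.

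Clusterin, a secreted chaperone that binds misfolded proteins, is encoded by Clu. It ran from 234.5 through 351.9 to 503.2 CPM in db/db kidneys, against 143.1, 195.9 and 225.8 CPM in db/m kidneys. The groups again did not overlap, but the gap was narrow: db/db replicates 2 and 1, at 234.5 and 237.7 CPM, lay just above the highest db/m library. The spread was wider in db/db (mean 354 ± 93.6 CPM, n = 9) than in db/m (192 ± 27.1 CPM, n = 8; SD), which was not tested. Clu rose by 0.88 on the log2 scale (SE 0.15, 1.84-fold, 95% interval 1.49 to 2.28; edgeR adjusted p = 0.000482; exact permutation p = 0.000206).

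Lcn2, a lipocalin that carries iron-binding siderophores, was a low transcript here, with 214 counts over the db/db and 58 over the db/m libraries. Its level ran from 1.79 through 5.43 to 7.60 CPM in db/db kidneys, against 0.231, 1.12 and 2.87 CPM in db/m kidneys. In db/db, 8 of 9 libraries exceeded the highest db/m library. The exception was replicate 1, the library with the most Spp1. Lcn2 had the largest fold change of the 10 genes and the widest interval among those tested (log2 fold change 1.78, SE 0.34, 3.44-fold, 95% interval 2.10 to 5.63; edgeR adjusted p = 0.00171; exact permutation p = 0.000329). Lcn2 is also a granule protein of neutrophils. Of 11 neutrophil markers 0 had enough counts to be tested, and Camp, Mpo and Elane were at 0 in all 17 libraries. Their summed level had a median of 4.75 CPM in db/db (0.552 to 9.96 CPM) and 2.82 CPM in db/m kidneys (0.232 to 9.89 CPM). The most abundant of them, the calcium-binding S100a8 and S100a9, averaged 2.02 ± 1.44 and 1.73 ± 1.26 CPM in db/db, against 1.06 ± 1.54 and 1.45 ± 0.790 CPM in db/m kidneys (SD, n = 9 and 8). Retnlg had 13 counts in db/db and 4 in db/m kidneys, and Mmp8 had 9 in db/db and 4 in db/m kidneys. The part of neutrophil RNA in the rise of Lcn2 was not tested.

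**Figure D2:**
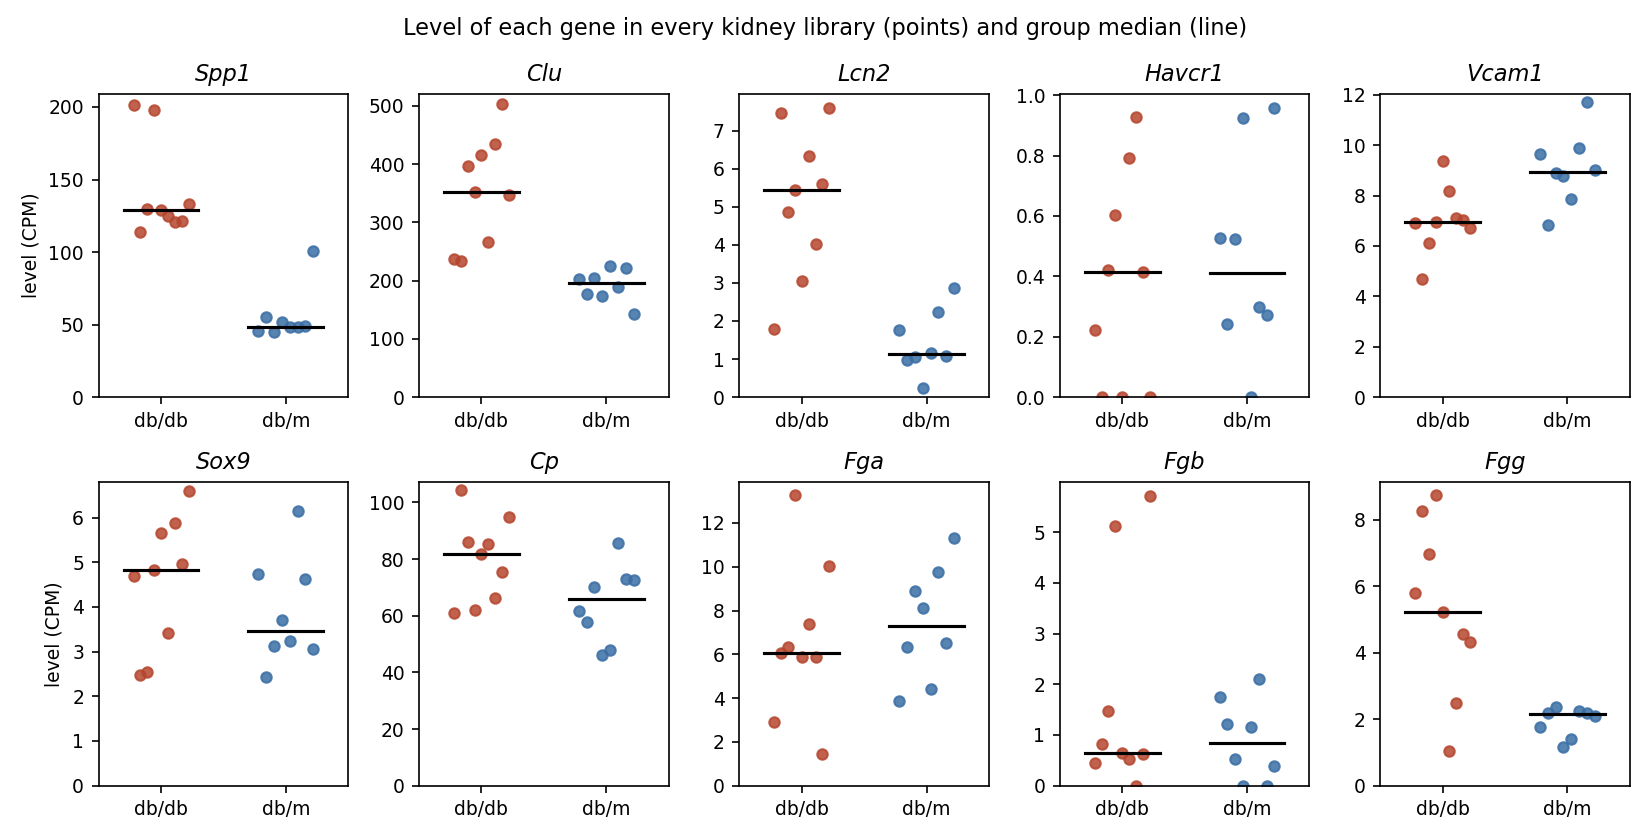
Level of each gene in CPM in every library (points) with the group median (line), db/db left of db/m; the vertical scales differ between panels and start at 0. Spp1 and Clu show no overlap, Lcn2 has 1 db/db library within the db/m range, Fgg has 1 below it, and the other 6 genes overlap.

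The proximal tubule markers Havcr1 and Vcam1 and the repair factor Sox9 were not called. Havcr1 encodes the phosphatidylserine receptor KIM-1, which lets tubule cells engulf dying neighbours. It gathered 13 counts in db/db kidneys, with 3 libraries at 0, and 18 counts in db/m kidneys, with 1 library at 0. A library's limit for a count of 0, taken as 3 counts, was 0.380 to 0.929 CPM, and the highest single value of Havcr1 was 0.929 CPM in db/db and 0.958 CPM in db/m kidneys. Fitted with all 25107 genes that had a count, of which 3.28% were called, it was at -0.39 (SE 0.69; edgeR adjusted p = 0.797). Its 95% interval, 0.288-fold to 2.02-fold, is too wide to exclude a 2-fold difference.

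Vcam1 encodes an adhesion protein that binds the integrin VLA-4 on leukocytes. It ran from 4.69 through 6.94 to 9.36 CPM in db/db kidneys, against 6.82, 8.94 and 11.7 CPM in db/m kidneys. In db/db, 3 of 9 libraries lay below the lowest db/m library, and the others overlapped. Its log2 fold change of -0.37 (SE 0.15) did not pass edgeR's test over all genes (adjusted p = 0.157), although its unadjusted exact permutation p was 0.00629. Vcam1 is also an endothelial gene: of 7 endothelial markers 0 were called, and their summed level was 377 to 472 CPM in db/db and 386 to 498 CPM in db/m kidneys. Itga4, the alpha subunit of VLA-4, was at 2.19 ± 1.55 CPM in db/db and 3.06 ± 0.702 CPM in db/m kidneys and was not called.

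Sox9 ran from 2.48 through 4.83 to 6.59 CPM in db/db kidneys, against 2.43, 3.47 and 6.14 CPM in db/m kidneys. The groups overlapped almost over their whole range. The log2 fold change was 0.23 (SE 0.24; edgeR adjusted p = 0.638; exact permutation p = 0.359), with an interval of 0.830-fold to 1.65-fold.

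Ceruloplasmin (Cp) is the copper enzyme that oxidises iron for loading onto transferrin. It ran from 61.0 through 81.8 to 104.3 CPM in db/db kidneys, against 46.0, 65.9 and 85.5 CPM in db/m kidneys. Most libraries of the groups lay in the same range, with 3 of 9 db/db libraries above all of db/m. The log2 fold change of 0.31 (SE 0.14, 1.24-fold, interval 1.02 to 1.51) did not pass edgeR's adjustment over all genes (adjusted p = 0.196); the unadjusted exact permutation p was 0.0430. Among 21 genes of iron and copper handling around Cp, 17 were tested, 2 rose and 1 fell, with a median log2 fold change of 0.22. Transferrin (Trf) rose to 19.7 ± 4.29 CPM in db/db, against 10.9 ± 4.47 CPM in db/m kidneys (0.85, SE 0.21; edgeR adjusted p = 0.0149). The metal-binding metallothionein Mt1 rose as well (1.17, SE 0.26; edgeR adjusted p = 0.00626), and the zinc and iron importer Slc39a8 fell (-1.21, SE 0.32; edgeR adjusted p = 0.0216). Without db/m replicate 4 the call of Slc39a8 ended, and without db/db replicate 8 the number higher was 4. The ferroxidase Heph, a relative of ceruloplasmin that sits in the membrane, was at 7.02 ± 2.14 CPM in db/db and 4.92 ± 2.35 CPM in db/m kidneys and was not called.

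The fibrinogen chain genes are neighbours on mouse chromosome 3, and in liver they are induced together by interleukin 6 through STAT3 and C/EBP factors. The 250 bases before each annotated start are shown for the 3 chains, of which Fgg was called, Fga was not and Fgb was too low to be tested. Whether these bases bear on the levels of the chains was not tested. The printed bases are the RefSeq sequences of build GRCm38.p6, written 5′ to 3′ on the gene's strand, with capitals marking matches to the motifs named after them. The build behind the deposited counts is not given in the sources used here, and these coordinates belong to the sequence table.
Fgg, chr3:83007474-83007723, plus strand: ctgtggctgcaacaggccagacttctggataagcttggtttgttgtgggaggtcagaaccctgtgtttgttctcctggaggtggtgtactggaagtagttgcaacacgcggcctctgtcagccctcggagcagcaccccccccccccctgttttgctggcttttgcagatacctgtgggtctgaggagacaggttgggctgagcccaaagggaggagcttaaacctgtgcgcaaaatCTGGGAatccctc
Fga, chr3:83025903-83026152, plus strand: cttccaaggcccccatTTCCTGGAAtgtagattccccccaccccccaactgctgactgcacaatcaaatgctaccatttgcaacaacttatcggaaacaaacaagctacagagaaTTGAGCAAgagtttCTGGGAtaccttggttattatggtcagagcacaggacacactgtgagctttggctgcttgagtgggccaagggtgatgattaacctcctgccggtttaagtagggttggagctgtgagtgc
Fgb, chr3:83049864-83050113, minus strand: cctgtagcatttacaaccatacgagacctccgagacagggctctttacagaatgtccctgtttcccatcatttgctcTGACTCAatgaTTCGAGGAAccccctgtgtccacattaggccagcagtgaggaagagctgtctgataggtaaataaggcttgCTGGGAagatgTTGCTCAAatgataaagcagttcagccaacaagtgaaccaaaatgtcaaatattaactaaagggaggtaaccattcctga
The core of the interleukin 6 response element, CTGGGA, was found in all 3 windows, beginning at -13 in Fgg, -121 in Fga and -91 in Fgb relative to the start. It occurs on either strand in 27.0% of the 32851 windows of this length in the RefSeq table. The STAT motif TTCNNNGAA was found at -234 in Fga and -162 in Fgb (7.02% of windows), and the C/EBP motif TTGCNNAA at -135 in Fga and -80 in Fgb (9.56%). The AP-1 motif TGANTCA was found in Fgb only, at -173 (6.75%). These letters were not in the Fgg window, and the NF-kB motif (17.6%) and the TATA motif TATAAA (12.4%) were in 0 of the 3. Both strands were searched; the STAT and AP-1 motifs read the same on either strand, and no matches overlapped in the 3 windows shown. A match is a run of letters and does not show that a factor binds.

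Fgg, the gamma chain gene, ran from 1.06 through 5.22 to 8.75 CPM in db/db kidneys, against 1.16, 2.14 and 2.35 CPM in db/m kidneys. In db/db, 8 of 9 libraries lay above every db/m library, and replicate 6 lay below them all. Fgg rose by 1.44 on the log2 scale (SE 0.31, 2.71-fold, 95% interval 1.73 to 4.25; edgeR adjusted p = 0.00549; exact permutation p = 0.00370). These values rest on 210 counts in db/db and 73 in db/m kidneys.

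Fga, the alpha chain gene, ran from 1.45 through 6.07 to 13.3 CPM in db/db kidneys, against 3.86, 7.31 and 11.3 CPM in db/m kidneys. The db/db libraries reached both above and below the db/m range. Its log2 fold change was -0.18 (SE 0.31; interval 0.564-fold to 1.39-fold; edgeR adjusted p = 0.801; exact permutation p = 0.452).

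Fgb, the beta chain gene, had 82 counts over the db/db and 38 over the db/m libraries and did not pass the filter. It ran from 0 through 0.653 to 5.70 CPM in db/db kidneys, against 0, 0.840 and 2.10 CPM in db/m kidneys. In db/db, replicates 4 and 9 held 17 and 45 of the counts, at 5.13 and 5.70 CPM, and the other 7 libraries lay at 0 to 1.48 CPM. Fitted with all genes that had a count, it was at 0.90 (SE 0.64; interval 0.748-fold to 4.65-fold; edgeR adjusted p = 0.521).

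The share of Fgg in the chain counts was higher in db/db kidneys. This share contains the rise of Fgg given above and is not a separate finding. Because all chain counts come from the same library, a share does not depend on how libraries are scaled; this comparison was chosen after the values above had been seen. Fgg made up 41.5% ± 19.2 of the counts of the 3 chains in db/db and 19.4% ± 4.43 in db/m kidneys (SD, n = 9 and 8), a difference of 22.1 percentage points (exact two-sided permutation p = 0.00683). The lowest and highest shares were 11.8% (95% Wilson interval 4.67 to 26.6, counting error only) and 68.8% (51.4 to 82.0) in db/db. In db/m they were 12.5% (5.46 to 26.1) and 25.0% (13.3 to 42.1). In db/db, 7 of 9 libraries exceeded the highest db/m share, and replicates 6 and 9 did not. Summed over the libraries, Fga, Fgb and Fgg took 269, 82 and 210 counts in db/db and 284, 38 and 73 counts in db/m kidneys.

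**Figure D3:**
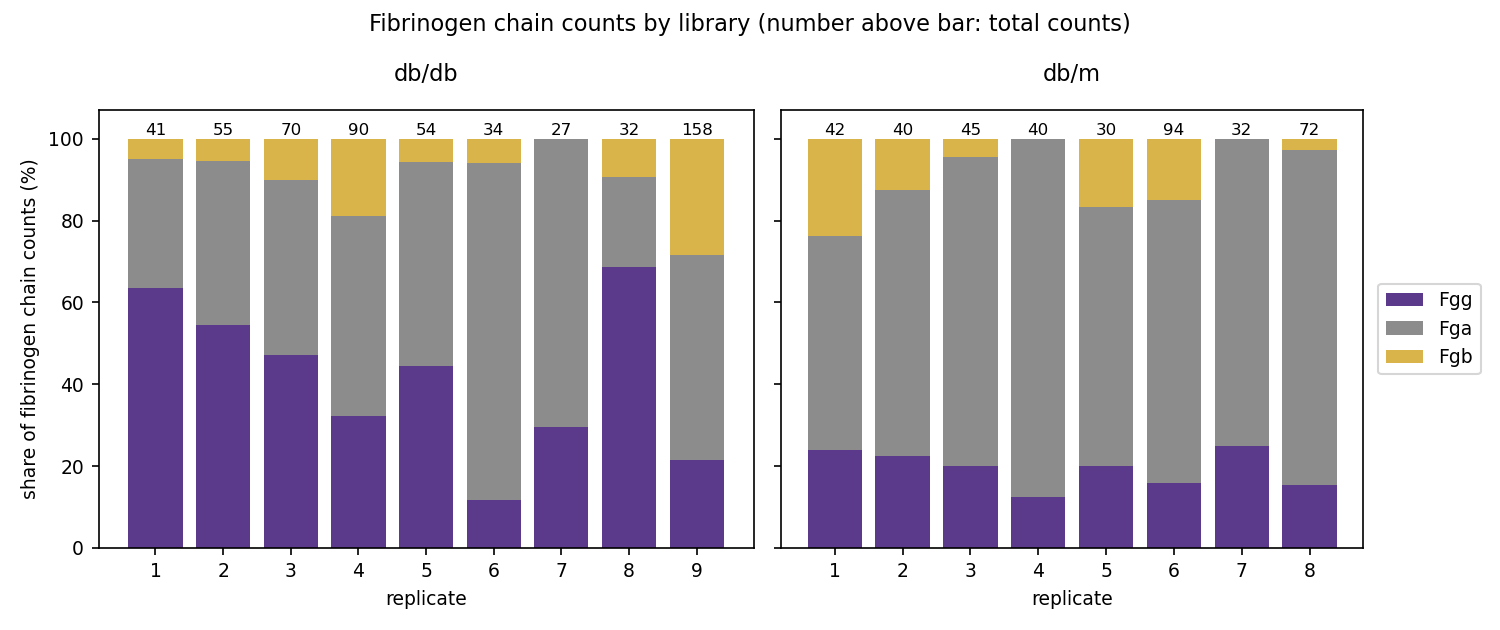
Share of the 3 fibrinogen chains in their summed counts, 1 bar per library, db/db left of db/m, with the summed count above each bar. The Fgg part reaches from 11.8% to 68.8% in db/db and from 12.5% to 25.0% in db/m.

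Fibrinogen is a hepatocyte product, so liver genes are given beside it. Of 10 hepatocyte markers 4 were tested, 1 higher, 1 lower and 2 not called, and Tat was at 0 in all libraries. Their summed level was 42.9 to 92.1 CPM in db/db and 39.5 to 74.2 CPM in db/m kidneys, of which Serpina1a alone averaged 36.8 CPM in db/db and 41.7 CPM in db/m kidneys. Albumin (Alb) was at 16.6 ± 8.55 CPM in db/db and 8.11 ± 3.82 CPM in db/m kidneys (1.02, SE 0.31; edgeR adjusted p = 0.0510). Within db/db, Alb was highest in replicates 9 and 4, at 33.1 and 27.8 CPM, with the other 7 libraries at 4.97 to 16.3 CPM. These are the db/db libraries with the most Fga and Fgb, and replicate 4 also had the most Fgg, followed by replicate 2. The summed level of the 10 hepatocyte markers, which includes Alb, was also highest in replicates 9 and 4 within db/db, at 92.1 and 80.0 CPM. Serpina1a, the most abundant of these markers, did not share this order. Within db/db it was highest in replicate 2, at 48.8 CPM, was at 29.1 CPM in replicate 9, and replicate 4 held its median. The part of liver-type RNA in the fibrinogen values was not tested.

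Of 32 plasma and acute phase proteins, 10 were tested, 2 rose and 2 fell, with a median log2 fold change of 0.05. Besides Trf the apolipoprotein Apoa2 rose (1.34, SE 0.37), and the protease inhibitor Serpina1b (-1.54, SE 0.24) and the phospholipid-binding Apoh (-1.17, SE 0.30) fell. When db/db replicate 9 was left out, or db/m replicate 4, 5 or 6, 1 was higher. Serpina1b shares long stretches with its paralogs, Serpina1a among them, so the counts of both are uncertain.

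Of 27 genes of interleukin 6 family signalling and of the factors that act on fibrinogen promoters, 20 were tested, 0 rose and 3 fell, with a median log2 fold change of -0.16. The cytokine inhibitor Socs2 fell to 12.5 ± 3.11 CPM in db/db, against 23.1 ± 9.62 CPM in db/m kidneys (-0.90, SE 0.22; edgeR adjusted p = 0.0154). The glucocorticoid receptor Nr3c1 fell to 42.2 ± 10.4 CPM in db/db, against 60.3 ± 6.32 CPM in db/m kidneys (-0.51, SE 0.14; edgeR adjusted p = 0.0217). Stat3 itself was at 129.8 ± 49.4 CPM in db/db and 101.5 ± 18.1 CPM in db/m kidneys and was not called. Il6 had 0 counts in db/db and 1 in db/m kidneys.

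Among 21 genes that form or dissolve fibrin, 16 were tested, 2 rose and 3 fell, with a median log2 fold change of 0.37. Plau, the plasminogen activator urokinase, fell to 23.9 ± 8.57 CPM in db/db, against 52.1 ± 23.2 CPM in db/m kidneys (-1.13, SE 0.24; edgeR adjusted p = 0.00427). Serpinf2, which encodes the plasmin inhibitor alpha 2-antiplasmin, fell to 56.1 to 140.9 CPM in db/db, against 111.5 to 175.8 CPM in db/m kidneys (-0.90, SE 0.16; edgeR adjusted p = 0.000675). The protease inhibitor Serpine2 rose (0.69, SE 0.14; edgeR adjusted p = 0.00370). The plasminogen receptor subunit S100a10 was the other that rose (0.49), and coagulation factor F8 the other that fell (-0.59).

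Receptors of the secreted proteins were set beside their ligands. Of 20 such genes 13 were tested, 1 rose and 2 fell, with a median log2 fold change of -0.09. The integrin subunit Itgav, part of the osteopontin receptors, rose to 83.8 ± 28.9 CPM in db/db, against 51.8 ± 10.8 CPM in db/m kidneys (0.69, SE 0.18; edgeR adjusted p = 0.0190). Cd44, another osteopontin receptor, had 70 counts in each group and did not pass the filter. Slc22a17, described as a receptor of lipocalin 2, fell to 17.2 ± 3.48 CPM in db/db, against 32.5 ± 4.99 CPM in db/m kidneys (-0.92, SE 0.13; edgeR adjusted p = 8.26e-05). Timd2, a mouse receptor of ferritin related to Havcr1, fell to 21.3 ± 3.13 CPM in db/db, against 52.5 ± 6.92 CPM in db/m kidneys (-1.30, SE 0.11; edgeR adjusted p = 1.24e-07). Lrp2, the endocytic receptor megalin that takes up clusterin and lipocalin 2, was at 671 ± 223 CPM in db/db and 948 ± 199 CPM in db/m kidneys and was not called (edgeR adjusted p = 0.0811).

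Of 49 other genes of tubular injury and repair, 40 were tested, 7 rose and 1 fell, with a median log2 fold change of 0.22. The cell cycle inhibitor Cdkn1a (1.75, SE 0.21), complement C3 (1.59, SE 0.20) and the surface protein Prom1 of tubule progenitor cells (1.11, SE 0.19) had the smallest p among the rises. The others were Gdf15, Lgals3, Krt7 and S100a10. Il34, a macrophage growth factor made by injured tubules, fell to 17.9 ± 6.94 CPM in db/db, against 47.4 ± 23.9 CPM in db/m kidneys (-1.40, SE 0.27; edgeR adjusted p = 0.00167); without db/db replicate 4 the number lower was 3. Of 20 NF-kB pathway genes 14 were tested, and Nfkbiz, an inducible co-factor of NF-kB that takes part in Lcn2 induction, was the 1 that rose (0.89, SE 0.26; edgeR adjusted p = 0.0389). Its call held in 7 of 17 fits that left out 1 library and ended when db/db replicate 2, 3, 4, 6, 7 or 8 was left out, and likewise for db/m replicate 2, 3, 5 or 7.

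**Figure D4:**
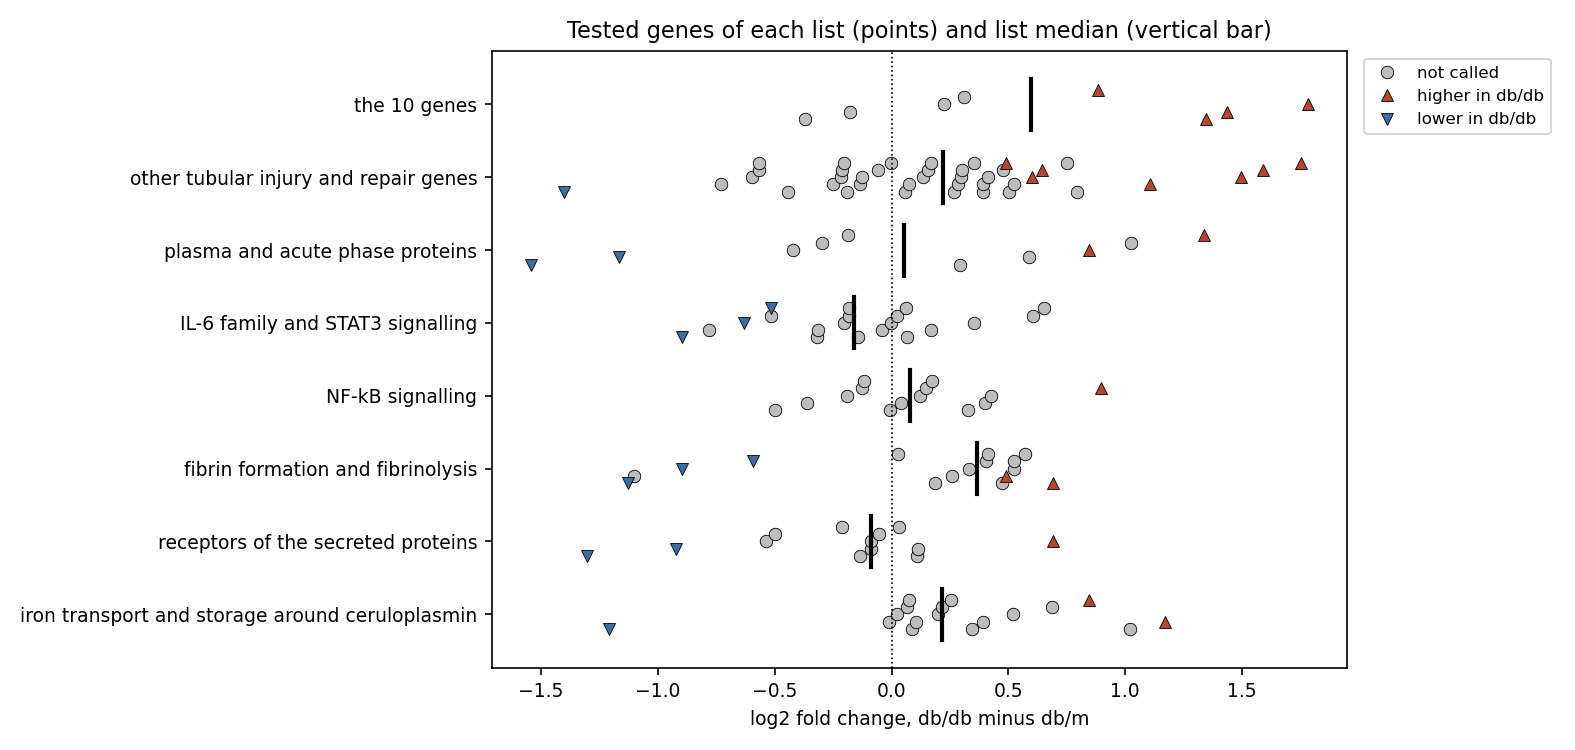
Log2 fold change (db/db minus db/m) of the tested genes of 8 lists, 1 point per gene, with the list median as a vertical bar; triangles mark genes that passed the test. The 10 genes have a median of 0.60 and the IL-6 and STAT3 list one of -0.16, with 0 genes higher.

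Markers of other cell types moved with the groups as well. Of 4 principal cell markers 3 rose, and their summed level was 557 to 1514 CPM in db/db and 187 to 828.6 CPM in db/m kidneys. Of 4 distal convoluted tubule markers 2 rose (716 to 1242 CPM in db/db and 506 to 775 CPM in db/m kidneys), and of 4 thick ascending limb markers 1 did (858 to 2669 CPM in db/db and 1309 to 3162 CPM in db/m kidneys). Of 4 intercalated cell markers 2 rose (121 to 195 CPM in db/db and 105 to 139 CPM in db/m kidneys), as did 2 of 5 podocyte markers (152 to 226 CPM in db/db and 116 to 177 CPM in db/m kidneys). Of 8 proximal tubule markers 1 rose, and of 6 tested macrophage markers 0 were called (all 10 summed to 82.9 to 251 CPM in db/db and 139 to 291 CPM in db/m kidneys). None of these 7 lists held a marker at 0 in all libraries. Of 8 T and B cell markers 0 had enough counts to be tested and Cd79a was at 0 in all libraries. Their summed level did not overlap between the groups, at 0.828 to 2.96 CPM in db/db and 3.27 to 17.4 CPM in db/m kidneys, or 70 counts in db/db and 253 in db/m kidneys. Jchain, the joining chain of secreted antibodies, took 30 of those counts in db/db and 169 in db/m kidneys. Of the tested fibroblast and mural cell (8), urothelium (4), adipocyte (3) and platelet (1) markers 0 were called, and 0 of 5 adrenal cortex markers could be tested. Spp1, Clu and Lcn2 are made by several of these cells, and the part of cell composition in their rise was not tested.

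The highest values of the genes that rose fell in different db/db libraries, but some leads were narrow. In db/db, the highest Spp1 was in replicate 1, the highest Clu in replicate 8, the highest Lcn2 in replicate 9 and the highest Fgg in replicate 4. Replicate 2 came close for Lcn2 (7.45 against 7.60 CPM) and Fgg (8.28 against 8.75 CPM), and replicate 4 for Spp1 (197.7 against 201.5 CPM). These peaks therefore do not show that the genes rose in different animals. Relations within each group were computed for 6 gene pairs, 12 relations in all, on log2 CPM. None passed Benjamini-Hochberg adjustment (lowest adjusted p = 0.115 for r and 0.399 for rho, from exact permutation p-values). Spp1 and Clu gave r = -0.283 in db/db (exact permutation p = 0.460), with rho = -0.200 (exact permutation p = 0.613, n = 9). Leaving out the 2 libraries farthest from the median of Spp1 turned r to 0.362 (exact permutation p = 0.421). The db/m libraries gave the strongest relation, r = -0.847 (exact permutation p = 0.00962), with rho = -0.714 (exact permutation p = 0.0576, n = 8). It rested on 2 libraries, replicates 2 and 8, and without them r was -0.410 (exact permutation p = 0.431). Between Fga and Fgb in db/db, r was 0.588 (exact permutation p = 0.0900; rho = 0.650, exact permutation p = 0.0666; n = 9), or 0.587 when the 2 libraries farthest in Fga were dropped (exact permutation p = 0.165). Between Fga and Fgg in db/db, r was 0.0343 (exact permutation p = 0.928; rho = 0.133, exact permutation p = 0.744; n = 9), or -0.294 when the same 2 were dropped (exact permutation p = 0.486).

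Likeness of pattern was measured as the Pearson r of deviations from the group means of log2 CPM over the 17 libraries, among the 8986 tested genes that averaged 3 or more on that scale. As the highest of many, these values are a description. Spp1 was most like Brd2 (0.858), Sgpl1 (0.834) and C77080 (0.823). Lcn2 was most like 4930523C07Rik (0.862), Mta3 (0.861) and Proser2 (0.845). Fgg was most like Jrkl (0.804), 4921524J17Rik (0.736) and Cep95 (0.730). Of these 9 genes, Jrkl alone was called between the groups, and it was lower in db/db (-0.70; edgeR adjusted p = 0.00999), whereas Fgg was higher.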

How the data were processed

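RNA from 17 kidneys was made into QuantSeq 3′ libraries, per the labels' protocols. The authors aligned reads with STAR 2.7.3a and counted them with HTSeq (version given as 2.16.2), per the submitters' processing notes; the deposited values are raw counts per gene. Those notes name the human build GRCh38, while the table carries mouse Ensembl identifiers. The sources used here do not give the mouse build, the strand setting or how duplicates were handled, so genes that overlap or have close copies are uncertain. Fold change intervals include the spread between animals, while Wilson intervals of count shares and limits for a count of 0 cover counting error only. Of 55487 identifiers, 55141 were given a symbol. Reads outside genes (19.3% of the table) and ambiguous reads (0.533%) were left out.

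Tests of the counts used edgeR 4.0.16 (glmQLFit and glmQLFTest; filterByExpr with a minimum count of 10, TMM, no covariate) in R 4.3.3, with Benjamini-Hochberg adjustment over all 12131 tested genes; this was also tested on simulated data. CPM uses TMM-scaled totals of tested genes; log2 CPM had a prior count of 2. All differences are db/db minus db/m. DESeq2 1.42.0, RLE factors, other filters, a replicate block and fits without each library were alternatives. Permutation tests and relations used numpy 2.4.6 and scipy 1.17.1. All 10 genes are named, with the 3 called genes of smallest p from each list and the 3 most alike genes of Spp1, Lcn2 and Fgg; further list genes were chosen after their values were seen. Some list genes are counted but not reported by name here. The 10 genes and the lists were chosen with earlier results of these data known. No library copied another (lowest chi-square per degree of freedom within a group 3.57).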

Additional observations from a re-analysis of the deposited data

Results flagged for a closer look

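Spp1 in db/m replicate 8 stood apart from its group. It was at 100.9 CPM, and the other 7 db/m libraries lay between 45.2 and 55.0 CPM. It was the 1 such value among 22 group and measure combinations screened, of which chance would pick out about 1 in 20. The same library had the highest Fga (11.3 CPM), Lcn2 (2.87 CPM) and Havcr1 (0.958 CPM) and the lowest Clu (143.1 CPM) of the db/m group. It also had the highest summed urothelium (216 CPM), adipocyte (306 CPM), fibroblast and mural cell (494 CPM) and principal cell (828.6 CPM) markers of that group. Its endothelium, T and B cell and platelet sums were the highest of db/m as well. The lowest db/m sums of proximal tubule (7615 CPM), thick ascending limb (1309 CPM), distal convoluted tubule (506 CPM) and macrophage (139 CPM) markers were also in this library. Whether these go with its Spp1 was not tested. Without this library the log2 fold change of Spp1 was 1.53 (SE 0.13; edgeR adjusted p = 1.44e-07).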

How the results depend on the processing

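The 4 rises kept their direction under every alternative run and passed the test under all of them, with 2 exceptions. With a minimum count of 20, Lcn2 and Fgg were not tested, so 2 of the 10 genes were called. With the replicate number as a block, Fgg was at 1.34 (edgeR adjusted p = 0.0734), and Spp1, Clu and Lcn2 were still called. No sign that the numbers pair the animals was seen: 2 of 8 same-numbered pairs had a correlation of deviations over 0.1 (-0.454 to 0.212), and 0 of 8 db/m libraries correlated best with their own number. Such correlations take all tested genes together and cannot exclude a weaker effect shared by a number. Under that block 435 genes were called, 200 higher and 235 lower, in place of 897, 474 and 423; 4 other injury genes were higher, 0 plasma proteins higher and 1 lower, 1 IL-6 pathway gene lower, 0 NF-kB genes higher, 1 fibrin gene higher, 0 receptors higher, and 1 iron gene higher and 0 lower. Trf, Apoh, Socs2, Nr3c1, Nfkbiz, Itgav and Slc39a8 were among the genes no longer called under that block. The cause was not tested. With a minimum count of 20, 1 plasma protein was lower. Without a filter, and without the library apart on the first principal component, 0 NF-kB genes were higher, and in the second case 4 iron genes were. Fits without 1 library each called 637 to 1237 genes, 1 to 3 other injury genes lower, 1 to 3 plasma proteins higher, 0 to 1 NF-kB genes higher, 2 to 4 iron genes higher and 0 to 1 lower. In those fits Spp1 ran from 1.27 to 1.53, Lcn2 from 1.64 to 2.00, Clu from 0.80 to 0.95, Fgg from 1.32 to 1.57 and the Fgg share difference from 18.7 to 25.8 points (highest exact permutation p = 0.0134). As a share of Fga and Fgg alone the difference was 24.0 points (exact permutation p = 0.00555). With a prior count of 0.5 none of the 12 relations passed. Depth limits Havcr1 and Fgb, whose intervals span a 2-fold change.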
